A study of Mus musculus with 8 samples.

Results

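The 50 genes described here encode the machinery of DNA replication and of mitosis, and were measured by RNA sequencing in CD4 T cells sorted from the mouse spleen. They were taken as a fixed list of symbols out of 54837 genes in the count table, and were divided by known role into 25 replication genes, most of which peak in S phase, and 25 mitosis genes, most of which peak in G2 and M phase. The study asked how TIM-3, a co-inhibitory receptor encoded by Havcr2, affects gene expression in regulatory T (Treg) cells, and it holds 8 libraries in 3 groups. GFPhi (n = 3) holds cells labelled TIM-3+, FLAG+, GFP+, FoxP3+ from mice that carry FSF-TIM-3 in addition to Foxp3-eGFP-Cre-ERT2. GFPLow (n = 3) holds cells of that same genotype labelled TIM-3+, FLAG+, GFP-, FoxP3-. WT (n = 2) holds cells labelled TIM-3-, FLAG-, GFP+, FoxP3+ from mice with Foxp3-eGFP-Cre-ERT2 and no FSF-TIM-3. All mice, WT included, thus carried the tamoxifen-inducible Cre with eGFP under the control of Foxp3, and all received tamoxifen on each of 5 days. Cre is thus driven from Foxp3, although the GFPLow cells, which the titles also call Treg, are labelled FoxP3-. The labels do not say how many animals or cells stand behind a library, so the spread between libraries may be partly technical. Libraries are named by their group and the number in their title.

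A cell that leaves quiescence switches on cyclin E and E2F transcription factors. It loads the MCM helicase at replication origins with the help of Cdc6 and Cdt1. It then copies its DNA with polymerases, a sliding clamp and a supply of nucleotides. The mitotic genes follow later, under the control of the DREAM and MMB complexes and of Foxm1, and build the spindle, the kinetochore and the kinases that drive division. In T cells both programmes are low at rest and high in dividing cells, and some Treg cells divide in the unchallenged spleen. In bulk RNA, fewer dividing cells and less of each transcript per dividing cell cannot be told apart.

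Promoters of both classes were read, because the mitosis genes moved together between libraries of one group, as given further on. Of the 50 genes, 39 matched a RefSeq promoter window (GRCm38.p6, 250 bases before to 50 after the start), namely 20 replication and 19 mitosis genes. Motifs were searched on both strands: E2F sites (TTTCCCGC or TTTGGCGC), the cell cycle homology region CHR (TTTGAA) and the CCAAT box (CCAAT). An E2F site was present in 7 of 20 replication promoters (35%) and in 0 of 19 mitosis promoters. The share was 1.63% of all 27025 promoter windows and 3% of the 10990 windows of genes kept for testing. CHR was present in 3 of 20 replication promoters (15%) and in 14 of 19 mitosis promoters (73.7%). The share was 18.1% of all windows and 12.7% of those of genes kept for testing. Windows with both CHR and CCAAT numbered 3 of 20 and 14 of 19, against 7.12% of all windows and 5.23% of those kept for testing. CCAAT alone was common (13 of 20, 17 of 19, 37.9% of all and 38.8% of those kept for testing). Shown are 2 replication promoters with E2F sites (Mcm6, chr1:128359656-128359955, minus strand, and Mcm3, chr1:20820263-20820562, minus strand) and 2 mitosis promoters with CHR (Cdk1, chr10:69352863-69353162, minus strand, and Mki67, chr7:135716330-135716629, minus strand), 5′ to 3′ along the gene. Capitals mark matches to any of these motifs on either strand.
Mcm6: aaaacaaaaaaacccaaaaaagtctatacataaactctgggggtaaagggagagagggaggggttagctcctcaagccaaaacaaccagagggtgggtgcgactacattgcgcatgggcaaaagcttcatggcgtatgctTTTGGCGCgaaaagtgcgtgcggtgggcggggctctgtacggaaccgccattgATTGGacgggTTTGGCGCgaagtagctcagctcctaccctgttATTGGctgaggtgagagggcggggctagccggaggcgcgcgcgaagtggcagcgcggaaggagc
Mcm3: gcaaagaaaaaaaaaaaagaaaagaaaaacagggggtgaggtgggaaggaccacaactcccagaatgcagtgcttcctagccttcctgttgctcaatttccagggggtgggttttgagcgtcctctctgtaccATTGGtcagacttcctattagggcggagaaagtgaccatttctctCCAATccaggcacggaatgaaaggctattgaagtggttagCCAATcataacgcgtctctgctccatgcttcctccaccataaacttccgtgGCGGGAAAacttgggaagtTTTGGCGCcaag
Cdk1: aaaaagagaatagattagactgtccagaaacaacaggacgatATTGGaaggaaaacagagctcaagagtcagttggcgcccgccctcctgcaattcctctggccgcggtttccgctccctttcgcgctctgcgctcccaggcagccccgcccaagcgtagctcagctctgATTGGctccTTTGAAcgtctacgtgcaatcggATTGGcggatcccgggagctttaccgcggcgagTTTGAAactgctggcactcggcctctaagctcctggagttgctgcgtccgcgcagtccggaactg
Mki67: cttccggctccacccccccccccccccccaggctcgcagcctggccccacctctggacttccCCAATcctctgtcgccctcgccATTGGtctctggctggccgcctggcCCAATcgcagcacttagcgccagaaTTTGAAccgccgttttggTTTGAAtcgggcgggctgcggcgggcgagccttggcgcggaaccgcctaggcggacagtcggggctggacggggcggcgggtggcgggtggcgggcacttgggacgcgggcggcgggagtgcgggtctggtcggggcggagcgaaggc
Mcm6 held 2 E2F matches and no CHR, whereas Cdk1 and Mki67 each held 2 CHR matches and no E2F match. A match is a run of letters and does not show that a factor binds there, and no match says only that these letters were not in this window.

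Total counts ran from 44446215 to 55388756 per library. The sorted populations followed their labels: Havcr2 had 1077 to 1791 CPM (reads scaled to a common library size) in GFPhi, 127 to 538 CPM in GFPLow and 0.172 to 0.876 CPM in WT, and Foxp3 had 60.2 to 81.0 CPM in GFPhi, 1.97 to 4.82 CPM in GFPLow and 41.7 to 63.2 CPM in WT. WT 1 stood apart from the other 7 libraries. It held 18599 genes with counts (21248 to 22185 in the others), 6.54% mitochondrial counts (2.35% to 2.78%) and 15.8% counts of ribosomal protein genes (6.37% to 7.24%). The main results that use WT are therefore also given without WT 1, but not those of every gene. The Y-linked Ddx3y was at 0 CPM in GFPhi 3 and GFPLow 3 and at 170.3 to 229 CPM in the other libraries except WT 2, which had 6.16 CPM. Xist was at 236.7, 184 and 242 CPM in GFPhi 3, GFPLow 3 and WT 2, and near 0 in the other 5 libraries.

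These genes differed widely between libraries of one group. The mean log2 CPM over the 25 replication genes was 5.50, 5.00 and 4.62 in GFPhi 1, 2 and 3, 4.26, 3.91 and 4.79 in GFPLow 1, 2 and 3, and 4.57 and 4.36 in WT 1 and 2. Over the 25 mitosis genes it was 5.50, 4.70 and 4.08 in GFPhi 1, 2 and 3, 2.93, 3.72 and 4.64 in GFPLow 1, 2 and 3, and 4.41 and 4.58 in WT 1 and 2. GFPhi 1 was thus the highest of the 8 libraries for both lists, but GFPLow 3 exceeded GFPhi 3 for both, so that GFPhi and GFPLow overlapped. Between that pair of libraries only 1 of 25 mitosis genes and 8 of 25 replication genes were higher in GFPhi 3, whereas GFPhi 1 exceeded each GFPLow library in all 25 mitosis genes and in 24 of 25 replication genes.

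**Figure D1:**
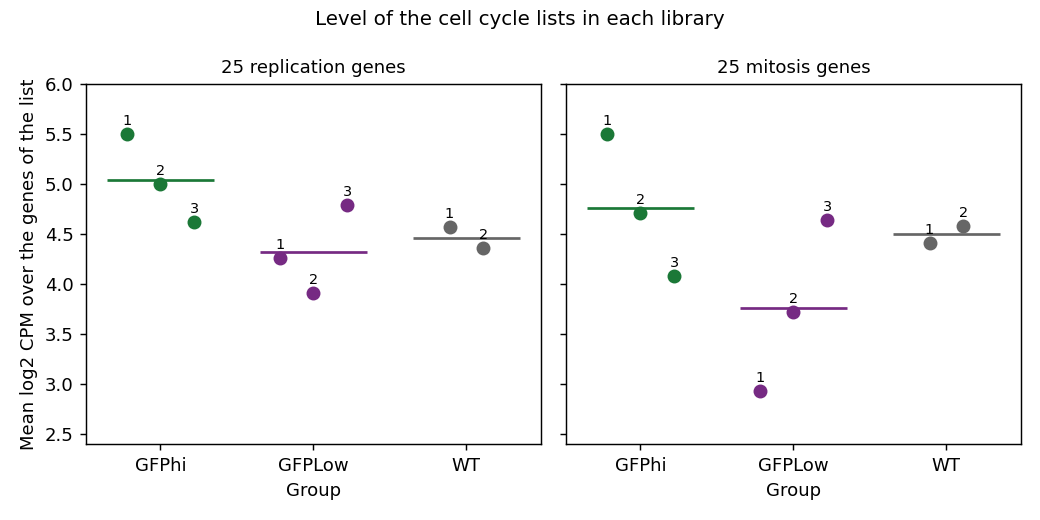
Mean log2 CPM (vertical axis) over the 25 replication genes (left) and the 25 mitosis genes (right) in each of the 8 libraries, with GFPhi, GFPLow and WT along the horizontal axis. Points are libraries with their numbers and horizontal lines are group means; GFPhi 1 is highest in both panels, and GFPLow 3 lies above GFPhi 3 in both.

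Most mitosis genes had the same highest and lowest library within GFPhi and within GFPLow. All 25 were highest of their group in GFPhi 1 and all 25 were highest in GFPLow 3, while 23 were lowest in GFPhi 3 and 22 were lowest in GFPLow 1. Among replication genes 22 were highest in GFPhi 1 and 23 in GFPLow 3, while 20 were lowest in GFPhi 3 and 17 in GFPLow 2. Replication and mitosis therefore did not have the same lowest GFPLow library: GFPLow 1 had a mean log2 CPM for replication genes that was 1.33 above that for mitosis genes, against 0.19 in GFPLow 2 and 0.15 in GFPLow 3. As a description over the 6 transgenic libraries, which share those libraries between all genes, deviations from the group mean had a median Pearson r of 0.92 among the 300 pairs of mitosis genes, all of them positive, 0.80 among the 300 pairs of replication genes and 0.70 across both lists.

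The size of that spread was set beside the 8882 genes with a mean above 8 CPM, a level reached by 23 of the mitosis genes and 19 of the replication genes. In GFPhi the highest library was over 2-fold above the lowest in 87% of those mitosis genes and 36.8% of those replication genes, against 2.4% of the 8882 genes. In GFPLow it was 87% and 31.6%, against 2.78%. Median ranges on the log2 scale in GFPLow were 1.88 for these mitosis genes, 0.65 for these replication genes and 0.24 for the 8882 genes.

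**Figure D2:**
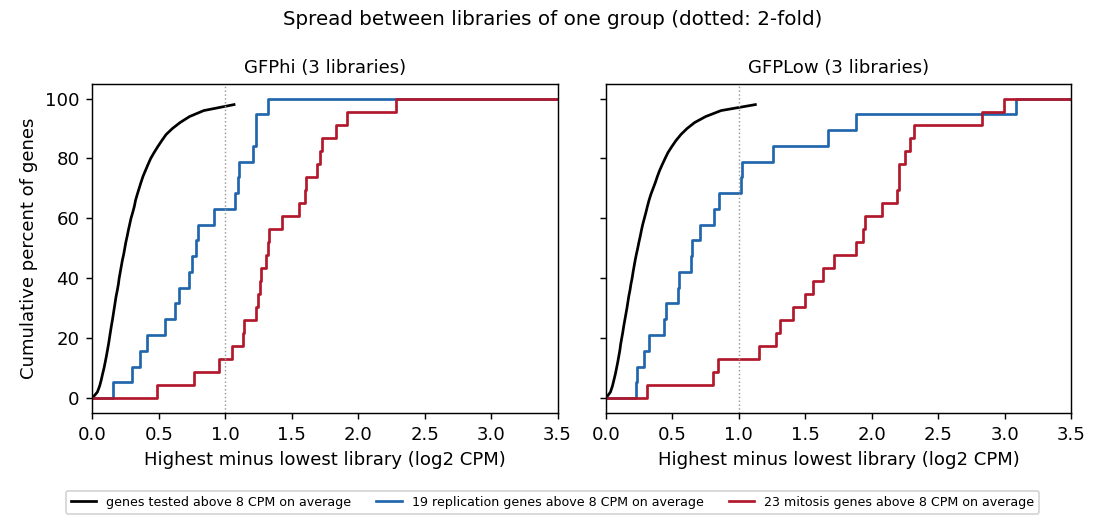
Cumulative percent of genes (vertical axis) by the difference between the highest and the lowest of 3 libraries in log2 CPM (horizontal axis), for GFPhi (left) and GFPLow (right). Black, all genes tested above 8 CPM on average, drawn to the 98th percentile; blue, 19 replication genes; red, 23 mitosis genes; the mitosis curve lies right of the other 2 over most of its course, and the dotted line marks a 2-fold range.

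GFPLow 3, the library with the highest mitosis genes of its group, also held the most RNA of myeloid and NK cell markers. The summed CPM of 7 myeloid markers was 3.11, 1.73 and 27.2 in GFPhi 1, 2 and 3, 24.4, 6.56 and 237 in GFPLow 1, 2 and 3, and 9.64 and 34.3 in WT 1 and 2, of which Lyz2 gave 197 CPM in GFPLow 3. Markers of NK cells (5 genes) summed to 2.82 to 6.79 CPM in GFPhi, 19.1 to 87.5 CPM in GFPLow with GFPLow 3 highest, and 1.85 to 6.23 CPM in WT. The part of these cells in the cell cycle genes was not tested; fold changes without GFPLow 3 are given with the comparison. The 6 thymocyte markers summed to 141 to 171 CPM in GFPhi, 321 to 364 CPM in GFPLow and 130.3 to 153 CPM in WT. Most of this was Themis and Cd1d1, which are not confined to thymocytes, and Dntt had 0.259 to 2.05 CPM in GFPhi, 6.18 to 12.4 CPM in GFPLow and 0 to 0.552 CPM in WT. From that list Rag1 and Rag2, and the neutrophil genes Elane, Mpo, Ly6g and Mmp8, were at 0 in all 8 libraries, while Ighm, from the B cell list, had 722 to 941 CPM in GFPhi, 814 to 963 CPM in GFPLow and 612 to 819 CPM in WT.

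In GFPhi against GFPLow, most of these genes had a higher mean in GFPhi, but by edgeR's quasi-likelihood test, with Benjamini-Hochberg adjustment over the 18851 genes tested, none of the 50 was called (0 of 50, against 2.26% of all genes). At an unadjusted p under 0.05 there were 10 members, against 11.6% of all genes, while DESeq2 called 3 (7.29% of all genes) and limma voom with quality weights 8 (12% of all genes). Fold changes were above 0 for 23 of 25 replication genes and 25 of 25 mitosis genes, against 51.2% of all genes. The median log2 fold change was 0.71 for replication genes and 0.94 for mitosis genes, against 0.01 for all genes. Without GFPhi 1 these medians were 0.27 and 0.52, and without GFPLow 3 they were 0.81 and 1.58, each time with 0 members called. The 3 GFPhi libraries lay above the 3 GFPLow libraries, with no overlap, in 8 replication genes and 0 mitosis genes, against 16% of all genes.

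**Figure D3:**
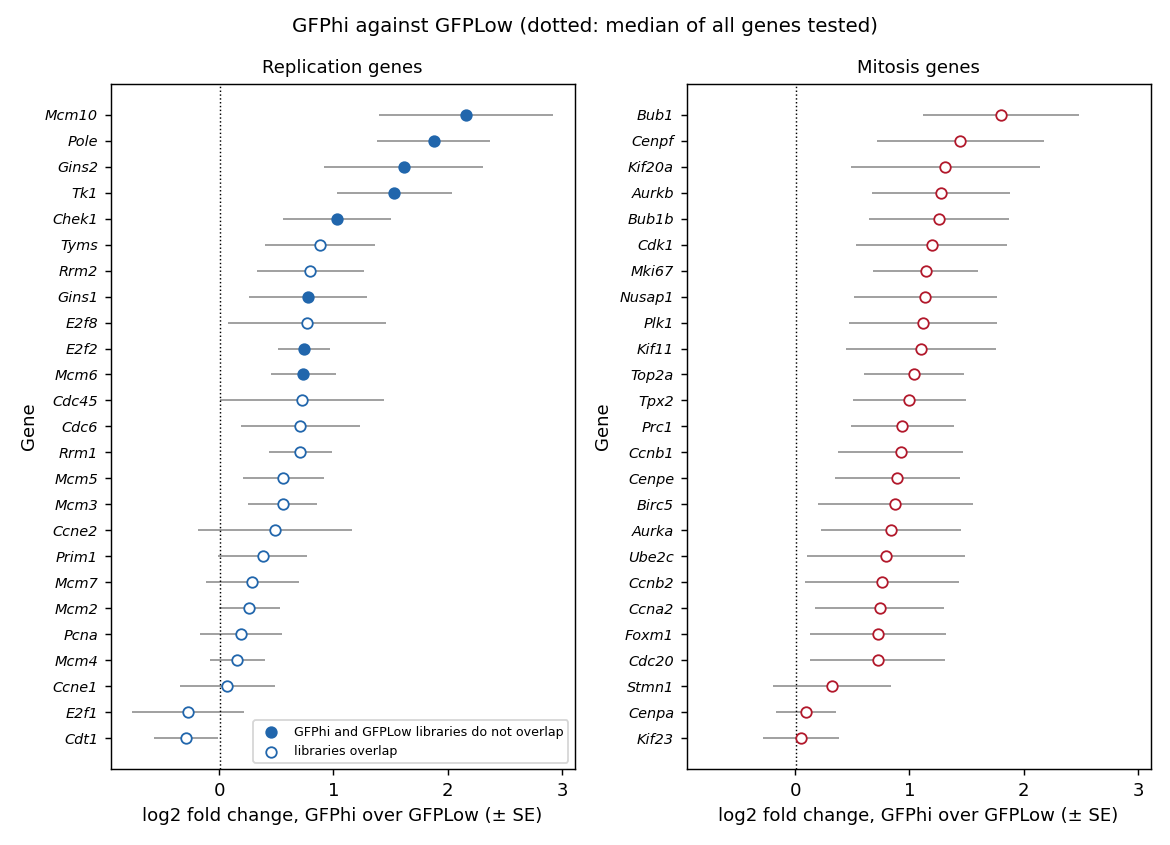
Log2 fold change of GFPhi over GFPLow with its standard error (horizontal axis) for each replication gene (left) and mitosis gene (right), from edgeR over 3 GFPhi and 3 GFPLow libraries in a fit of all 8. Filled points mark genes whose libraries do not overlap, which are 8 replication genes and no mitosis gene; the dotted line is the median of all genes tested, 0.01.

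Among the genes that license origins, Mcm2 to Mcm7 form the ring of the replicative helicase and Cdc6 and Cdt1 load it. Mcm6 (chr1:128331590-128359664, minus strand, GRCm38, GENCODE vM21) had 333, 306 and 259 CPM in GFPhi 1, 2 and 3, 169, 173 and 198 CPM in GFPLow 1, 2 and 3, and 103 and 228 CPM in WT 1 and 2. All GFPhi libraries were above all others, and the log2 fold change over GFPLow was 0.73 ± 0.28 (SE; edgeR adjusted p = 0.344). Mcm2 had 122, 108 and 92.1 CPM in GFPhi, 88.6, 73.1 and 107 CPM in GFPLow, and 36.8 and 70.0 CPM in WT. GFPLow 3 reached the GFPhi range there, and the log2 fold change over GFPLow was 0.26 ± 0.27. Mcm3, Mcm5 and Mcm7 had log2 fold changes of 0.56, 0.56 and 0.29 and Mcm4 of 0.16, none past the test. Cdc6 had 0.71 ± 0.52 and Cdt1 had -0.29 ± 0.28, neither past the test. Cdt1 was one of only 2 replication genes below 0, together with E2f1 at -0.27 ± 0.49.

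Mcm10, which helps to activate the loaded helicase, was scarce and differed most in fold. It had 15.0, 7.25 and 4.85 CPM in GFPhi 1, 2 and 3, 1.53, 0.467 and 4.05 CPM in GFPLow 1, 2 and 3, and 0.909 and 1.38 CPM in WT 1 and 2. All GFPhi libraries were above the rest, with GFPLow 3 just under GFPhi 3, and the log2 fold change over GFPLow was 2.16 ± 0.76 (edgeR adjusted p = 0.28). Cdc45 and the GINS subunits Gins1 and Gins2 complete the active helicase, with log2 fold changes of 0.72 ± 0.71, 0.78 ± 0.51 and 1.61 ± 0.70. Gins1 and Gins2 did not overlap between groups, and Cdc45 did.

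Pole, the catalytic subunit of the leading-strand polymerase epsilon, had the smallest p of the 50 genes. Located at chr5:110286306-110337474 (plus strand), it had 16.5, 16.8 and 11.2 CPM in GFPhi 1, 2 and 3, 1.64, 4.15 and 6.32 CPM in GFPLow 1, 2 and 3, and 8.18 and 4.71 CPM in WT 1 and 2. No GFPhi library overlapped another group, and the log2 fold change over GFPLow was 1.88 ± 0.49 (edgeR adjusted p = 0.122). Prim1, the primase, had 0.38 ± 0.39. Pcna, the sliding clamp, had 228, 176 and 156 CPM in GFPhi, 161, 146 and 183 CPM in GFPLow, and 486 and 168 CPM in WT. Its GFPhi and GFPLow libraries overlapped, with a log2 fold change of 0.19 ± 0.36.

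Of the enzymes of nucleotide supply, thymidine kinase Tk1 (chr11:117815526-117826092, minus strand) had 56.6, 34.5 and 24.1 CPM in GFPhi 1, 2 and 3, 9.86, 9.94 and 19.97 CPM in GFPLow 1, 2 and 3, and 78.4 and 25.9 CPM in WT 1 and 2. GFPhi was above GFPLow throughout, with a log2 fold change of 1.53 ± 0.51 (edgeR adjusted p = 0.233), but WT 1 was higher than any GFPhi library. Tyms (thymidylate synthase) and Rrm1 and Rrm2 (both subunits of ribonucleotide reductase) had log2 fold changes of 0.88, 0.71 and 0.80, each with overlap. Of the controlling genes, E2f2, an activating E2F factor (chr4:136172394-136196057, plus strand), had 30.3, 21.8 and 19.2 CPM in GFPhi, 15.1, 15.1 and 12.4 CPM in GFPLow, and 22.7 and 25.2 CPM in WT. E2f2 ran lower in GFPLow than in either FoxP3+ group without overlap, with a log2 fold change of 0.75 ± 0.23 for GFPhi over GFPLow (edgeR adjusted p = 0.185). Chek1, the checkpoint kinase of stalled forks, had 1.03 ± 0.47 without overlap. Ccne1 and Ccne2, the E cyclins, had 0.07 and 0.49, and E2f8, an E2F factor that represses transcription, had 0.77 ± 0.69.

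The count of called members depended on the WT libraries, which enter this comparison through the filter, the scaling and the shared estimate of spread. In fits without WT 1, Mcm6 (edgeR adjusted p = 0.00453), Pole (0.0394) and Tk1 (0.0448) were higher in GFPhi than in GFPLow and passed the test, 3 of 50 members against 9.66% of all genes. Without WT 2, these 3 and E2f2 (0.0492) passed, 4 of 50 against 9.64%. With the 6 transgenic libraries alone the same 4 passed, against 12.3% of all genes. No mitosis gene passed in any of these 3 fits. Without WT 1, DESeq2 called 11 members (15.8% of all genes), of which Bub1, Bub1b, Plk1 and Prc1 were mitosis genes, and limma voom called 3 (10.2% of all genes).

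The mitosis genes had larger folds and larger errors. Bub1, a kinase of the spindle checkpoint (chr2:127801122-127831865, minus strand), had 22.0, 9.39 and 4.13 CPM in GFPhi 1, 2 and 3, 1.81, 2.24 and 6.14 CPM in GFPLow 1, 2 and 3, and 4.80 and 6.74 CPM in WT 1 and 2. GFPLow 3 exceeded GFPhi 3, and the log2 fold change over GFPLow was 1.80 ± 0.68 (edgeR adjusted p = 0.331), the smallest p of the list. Mki67, which encodes the Ki-67 coat protein of mitotic chromosomes, had 95.8, 61.3 and 31.3 CPM in GFPhi, 16.3, 25.7 and 43.3 CPM in GFPLow, and 68.4 and 53.7 CPM in WT. The same crossing of GFPLow 3 and GFPhi 3 was present, with a log2 fold change of 1.14 ± 0.46 (edgeR adjusted p = 0.371). Top2a, the topoisomerase that untangles sister chromatids, had 174, 91.9 and 57.3 CPM in GFPhi, 31.2, 57.2 and 69.5 CPM in GFPLow, and 95.3 and 70.5 CPM in WT. Its log2 fold change was 1.04 ± 0.44 (edgeR adjusted p = 0.406).

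Cdk1, the kinase that drives entry into mitosis, and its partner cyclin Ccnb1 followed the same order of libraries within GFPhi and within GFPLow. Cdk1 had 51.2, 31.7 and 14.4 CPM in GFPhi 1, 2 and 3, 6.18, 12.2 and 24.0 CPM in GFPLow 1, 2 and 3, and 75.1 and 22.1 CPM in WT 1 and 2. Its log2 fold change over GFPLow was 1.20 ± 0.66 (edgeR adjusted p = 0.607). Ccnb1 had 53.2, 32.5 and 27.5 CPM in GFPhi, 7.53, 15.3 and 36.9 CPM in GFPLow, and 31.7 and 53.4 CPM in WT, with a log2 fold change of 0.92 ± 0.55. Ccna2 and Ccnb2 had 0.74 and 0.76. Among the other mitotic kinases Aurkb, the kinase of the chromosomal passenger complex, had 40.4, 12.2 and 19.4 CPM in GFPhi, 4.43, 6.54 and 18.8 CPM in GFPLow, and 16.9 and 16.7 CPM in WT. Aurkb was lowest in GFPhi 2 rather than GFPhi 3, and its log2 fold change was 1.27 ± 0.60 (edgeR adjusted p = 0.49). Plk1 and Aurka had log2 fold changes of 1.12 and 0.84, and the checkpoint protein Bub1b had 1.25.

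The remaining mitosis genes had log2 fold changes between 0.05 and 1.45 for GFPhi over GFPLow, none past the test. At the upper end were Cenpf, a protein of the outer kinetochore, at 1.45 ± 0.73 and the kinesin Kif20a at 1.31 ± 0.83. The spindle genes Kif11, Tpx2, Nusap1 and Prc1 had 1.10, 1.0, 1.14 and 0.94. Cenpe, a kinetochore kinesin, had 0.90, the survivin gene Birc5 had 0.88, and Cdc20 and Ube2c, which act with the anaphase-promoting complex, had 0.72 and 0.79. Foxm1, a transcription factor of the G2 programme, had 0.73. Near 0 were Kif23, a kinesin of the midzone, at 0.05 ± 0.34, Cenpa, the histone variant of centromeres, at 0.09 ± 0.26, and Stmn1, a regulator of microtubules, at 0.32 ± 0.52.

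**Figure D4:**
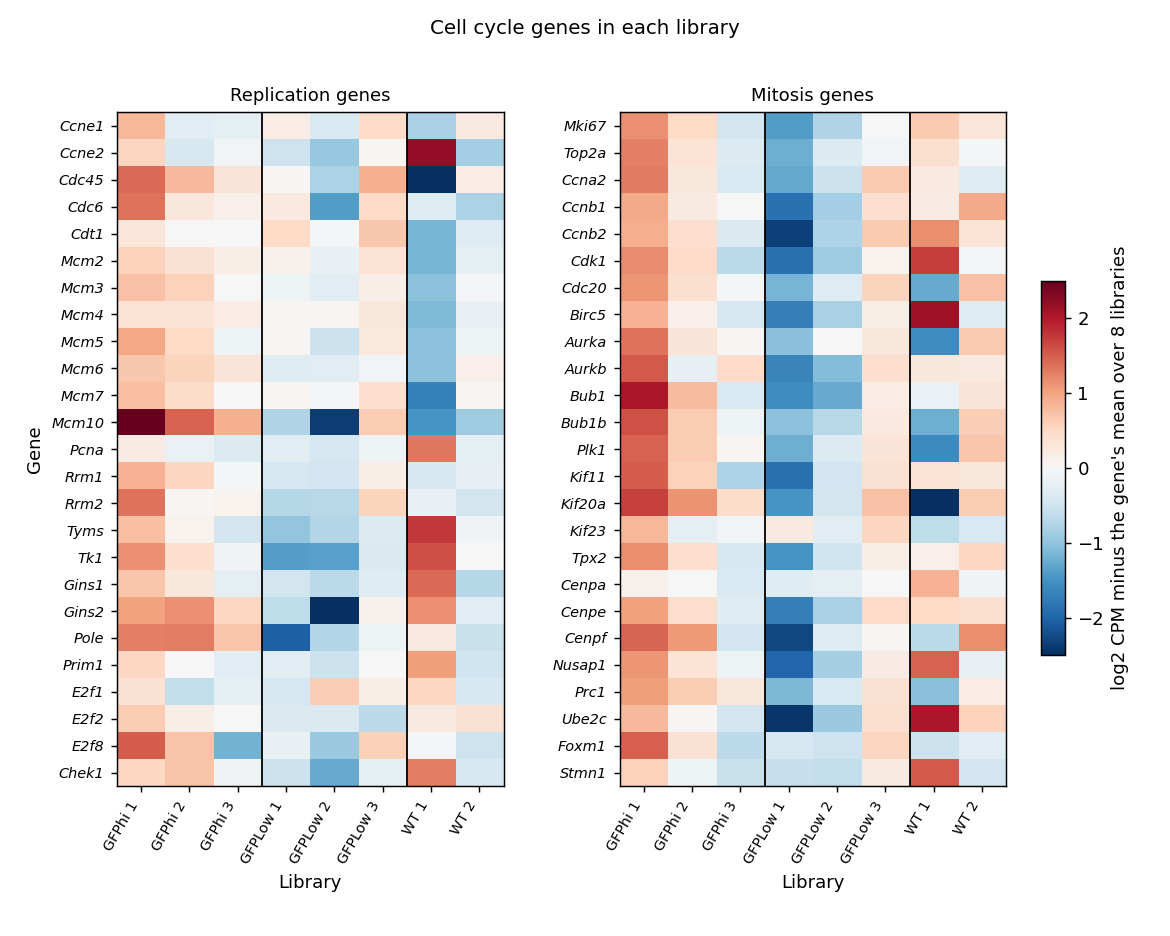
Log2 CPM of each gene minus its mean over the 8 libraries (colour; values past the ends of the scale take its end colours), with genes down the page and libraries across, for replication genes (left) and mitosis genes (right). GFPhi 1 is red for nearly every gene, GFPLow 1 is blue for most mitosis genes, and WT 1 mixes the darkest red and blue cells.

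Levels of different genes were set beside each other per kilobase of exon, with the length taken over all annotated exons of a gene. Of the 50 genes Pcna had the highest mean in GFPhi, 77.6 CPM per kb, with 68.0 CPM per kb in GFPLow and 136 CPM per kb in WT. Stmn1 (68.0 CPM per kb) and Mcm6 (64.2 CPM per kb) followed in GFPhi. The helicase subunits differed among themselves, from 64.2 CPM per kb for Mcm6 to 15.4 CPM per kb for Mcm2 in GFPhi. In GFPLow they ran from 43.4 for Mcm4 to 12.9 CPM per kb for Mcm2. The rank of Mcm2 depends on that length, which is 6956 bases for Mcm2 and 3993 for Mcm5. In CPM, Mcm2 (mean 107) was above Mcm5 (mean 98.4) in GFPhi. At the low end in GFPhi were E2f1 and Foxm1, both at 0.607 CPM per kb, and E2f8 at 0.732 CPM per kb. Exons of 14 of the 50 genes overlap another gene on the other strand (Pole, Tk1, Mcm7 and Kif20a among them), and because no strand setting is given, reads of both could be mixed there.

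In GFPhi against WT, which compares FoxP3+ cells with and without TIM-3, all GFPhi libraries were above both WT libraries in Mcm2 to Mcm6, whereas Mcm7, Gins1 and Gins2 overlapped, and no member passed the test. The count was 0 of 50 by edgeR's quasi-likelihood test with Benjamini-Hochberg adjustment, against 0% of all genes. At an unadjusted p under 0.05 there were 8 members (13.7% of all genes), DESeq2 called 1 (Mcm4; 1.7% of all genes) and limma voom 0. Fold changes were above 0 for 16 of 25 replication and 17 of 25 mitosis genes, against 53.4% of all genes, with medians of 0.80 and 0.38 against 0.08 for all genes. Without WT 1 these medians were 0.62 and 0.43, with 23 and 21 genes above 0, and edgeR and limma voom called 0 members (0% of all genes), as did DESeq2 (0.35% of all genes). Without GFPhi 1 they were 0.39 and -0.15, so the direction of the mitosis list rested on that library. All GFPhi libraries exceeded both WT libraries in 12 replication and 2 mitosis genes and fell below both in 0, against 15.6% and 12.6% of all genes.

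Those 12 were Cdc45, Cdc6, Cdt1, Mcm2, Mcm3, Mcm4, Mcm5, Mcm6, Mcm10, Rrm1, Rrm2 and Pole. Mcm10 had the highest log2 fold change over WT, 2.97 ± 0.93 (edgeR adjusted p = 0.348; 2.71 and 0.955 without WT 1). Mcm2 had 1.01 ± 0.31 (edgeR adjusted p = 0.348), and 0.62 without WT 1. Mcm4 had 181, 179.7 and 163 CPM in GFPhi 1, 2 and 3, 147, 147 and 173 CPM in GFPLow 1, 2 and 3, and 66.4 and 125 CPM in WT 1 and 2. Both transgenic groups lay above WT, with a log2 fold change of 0.86 ± 0.27 for GFPhi over WT (edgeR adjusted p = 0.348) and 0.48 without WT 1. Mcm3 had 127, 114 and 76.8 CPM in GFPhi, 69.7, 62.5 and 84.5 CPM in GFPLow, and 37.3 and 75.2 CPM in WT. The lowest GFPhi library was close to WT 2 there, and the log2 fold change over WT was 0.92 ± 0.34, or 0.50 without WT 1.

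The mitosis genes with the smallest p in GFPhi against WT went in both directions. Kif23 had 28.8, 13.9 and 15.6 CPM in GFPhi 1, 2 and 3, 19.3, 13.4 and 23.6 CPM in GFPLow 1, 2 and 3, and 10.4 and 12.4 CPM in WT 1 and 2. Prc1, which bundles the central spindle, had 42.0, 31.2 and 24.7 CPM in GFPhi, 9.30, 15.5 and 26.3 CPM in GFPLow, and 9.83 and 23.1 CPM in WT. For both, GFPhi did not overlap WT, with log2 fold changes of 0.77 ± 0.39 and 0.98 ± 0.51 (edgeR adjusted p = 0.388 and 0.398). Cenpa had 97.0, 89.4 and 69.1 CPM in GFPhi, 72.9, 76.1 and 90.4 CPM in GFPLow, and 163 and 84.8 CPM in WT. Ube2c had 51.5, 29.96 and 21.4 CPM in GFPhi, 5.40, 15.4 and 38.6 CPM in GFPLow, and 119 and 43.8 CPM in WT. Here only WT 1 was above every transgenic library, and the log2 fold changes of GFPhi over WT were -0.54 ± 0.29 for Cenpa and -1.24 ± 0.76 for Ube2c (edgeR adjusted p = 0.405 and 0.44). Without WT 1 they were 0.01 and -0.35. Mki67, Top2a, Cdk1, Ccnb1 and Pcna had log2 fold changes over WT of 0.04, 0.38, -0.58, -0.18 and -0.81, each with overlap, and each changed sign in at least 1 alternative.

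In GFPLow against WT, which differ in both FoxP3 and TIM-3, the mitosis genes ran lower in GFPLow and the replication genes had no common direction. Again 0 of 50 passed edgeR's quasi-likelihood test with Benjamini-Hochberg adjustment, against 3.3% of all genes. At an unadjusted p under 0.05 there were 12 members (25% of all genes), DESeq2 called 6 (17.2% of all genes) and limma voom 0 (0.382% of all genes). Fold changes were above 0 for 15 of 25 replication genes and 4 of 25 mitosis genes, against 50.7% of all genes, with medians of 0.12 and -0.76 against 0.02 for all genes. Without WT 1 the medians were 0.07 and -0.74, with 0 members called by edgeR (5.88% of all genes), 1 by DESeq2 (E2f2; 11.9%) and 0 by limma voom (6.9%). Without GFPLow 3 they were -0.20 and -1.34. Upper quartile scaling gave -0.01 and -0.90, with the median of all genes at -0.12, so the sign of the replication median turned with the scaling and with 1 library. GFPLow lay above WT without overlap in 4 members (Cdt1, Mcm2, Mcm4 and Kif23; 21.1% of all genes) and below it in 6 (Tyms, Tk1, E2f2, Mki67, Top2a and Ube2c; 19.2% of all genes).

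Tk1 had the smallest p, with a log2 fold change of GFPLow over WT of -1.97 ± 0.55 (edgeR adjusted p = 0.0995), and -0.96 without WT 1 (0.372). Cdt1 had 32.5, 26.4 and 26.5 CPM in GFPhi 1, 2 and 3, 37.1, 25.6 and 41.7 CPM in GFPLow 1, 2 and 3, and 11.7 and 20.97 CPM in WT 1 and 2. All 6 transgenic libraries were above WT, with a log2 fold change of GFPLow over WT of 1.09 ± 0.32 (edgeR adjusted p = 0.11), and 0.74 without WT 1. Tyms had 114, 71.8 and 49.2 CPM in GFPhi, 33.98, 40.4 and 53.3 CPM in GFPLow, and 231 and 63.3 CPM in WT. GFPLow was below both WT libraries, with a log2 fold change of -1.79 ± 0.53 (edgeR adjusted p = 0.11), and -0.57 without WT 1. E2f2 had -0.76 ± 0.25 (edgeR adjusted p = 0.125) and depended little on WT 1, with -0.82 without it (0.127). Of the mitosis genes, Ube2c had -2.04 ± 0.76 (edgeR adjusted p = 0.155) and -1.14 without WT 1. Birc5 had 80.9, 48.0 and 32.6 CPM in GFPhi, 13.4, 25.2 and 49.4 CPM in GFPLow, and 192 and 35.7 CPM in WT, with -1.96 ± 0.75 for GFPLow over WT (edgeR adjusted p = 0.16). GFPLow 3 was above WT 2 there, and without WT 1 the value was -0.28. Cdk1 had -1.78 ± 0.72 and Mki67 -1.10 ± 0.50, or -0.64 and -0.91 without WT 1.

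The WT libraries differed from each other in single genes while their list means lay close. Of the 50 genes, 25 differed by over 2-fold between WT 1 and WT 2, a share near that of all genes tested (52.2%). WT 1 was the highest of all 8 libraries for 15 genes (8 replication, 7 mitosis) and the lowest for another 15 (9 replication, 6 mitosis), against 33% and 46.8% of the 8882 genes above 8 CPM. Genes of the helicase ring went one way: Mcm2 to Mcm7 were all lowest in WT 1, with Mcm7 at 34.7 CPM in WT 1 and 114 CPM in WT 2. In contrast Pcna, Tyms, Tk1, Prim1 and both GINS genes were highest in WT 1. With WT 1 as the only WT library, edgeR called 19 members in GFPhi against WT (12 higher, 7 lower; 40.1% of all genes) and 20 in GFPLow against WT (7 higher, 13 lower; 43.9% of all genes), whereas with WT 2 as the only WT library it called 0 and 0. In those fits the lone WT library is assumed to vary like the other groups. The shares of all genes that edgeR called without WT 1 are given above with each comparison. Of the comparisons with WT, only GFPhi against WT had a share of 0 there.

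**Figure D5:**
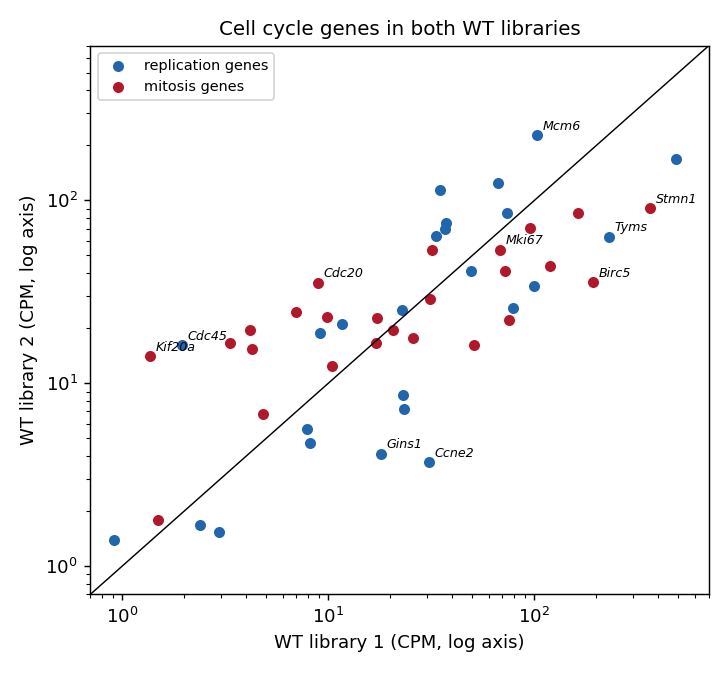
CPM of the 50 genes in WT 1 (horizontal log axis) and WT 2 (vertical log axis); blue points are replication genes, red points mitosis genes, and the line marks equal values. Both classes scatter to both sides of the line, with Kif20a and Cdc45 far above it and Ccne2 and Birc5 far below it.

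Other genes of the same pathways, from lists apart from the 50, were counted in the same fit. Of 49 further replication genes, 33 were above 0 in GFPhi against GFPLow with a median log2 fold change of 0.29. In that list 0 were called, against 2.26% of all genes. Of 50 further mitosis genes, 48 were above 0 with a median of 0.75 and 0 called (2.26% of all genes). The smallest p among them belonged to Ttk, a kinase of the spindle checkpoint, with 10.7, 6.42 and 4.17 CPM in GFPhi 1, 2 and 3, 1.76, 0.569 and 1.82 CPM in GFPLow 1, 2 and 3, and 2.56 and 3.07 CPM in WT 1 and 2. Its GFPhi libraries overlapped neither GFPLow nor WT, with a log2 fold change over GFPLow of 2.36 ± 0.55 (edgeR adjusted p = 0.0829; 0.0307 without WT 1). In the further replication genes the smallest p belonged to Rfc3, a subunit of the clamp loader, with a log2 fold change of 1.04 ± 0.28 for GFPhi over GFPLow (edgeR adjusted p = 0.135; 0.00635 without WT 1). Pole2, the second subunit of polymerase epsilon, ran against Pole, with 11.6, 13.1 and 12.6 CPM in GFPhi, 21.7, 16.9 and 28.4 CPM in GFPLow, and 11.1 and 10.5 CPM in WT. GFPLow was above both other groups, with a log2 fold change of -0.85 ± 0.24 for GFPhi over GFPLow (edgeR adjusted p = 0.14; 0.037 without WT 1).

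Of 20 tested genes of G1 entry, 1 was called in GFPhi against GFPLow, against 2.26% of all genes, so this is a single gene and not a result on the list. Cdk6, a partner of the D cyclins, had 77.6, 94.7 and 67.7 CPM in GFPhi 1, 2 and 3, 31.3, 21.9 and 32.5 CPM in GFPLow 1, 2 and 3, and 42.5 and 77.8 CPM in WT 1 and 2. It rose in GFPhi against GFPLow with a log2 fold change of 1.49 ± 0.28 (edgeR adjusted p = 0.0353; 0.0022 without WT 1), and its GFPhi libraries did not follow the order of the mitosis genes, since GFPhi 2 was highest. Of 12 genes linked to T cell quiescence, 12 were below 0 (48.8% of all genes) with a median of -0.29. Of these, 9 did not overlap (14% of all genes), but 0 were called (2.26% of all genes). Pik3ip1, an inhibitor of PI3-kinase, had 108, 104 and 117 CPM in GFPhi, 209.6, 185 and 192 CPM in GFPLow, and 68.7 and 106 CPM in WT. Its log2 fold change for GFPhi over GFPLow was -0.84 ± 0.19 (edgeR adjusted p = 0.077; 0.000559 without WT 1). Of 6 tested inhibitors of cyclin-dependent kinases, 0 were called (2.26% of all genes), with 5 above 0 and 1 below. Cdkn1a had 4.59, 3.14 and 3.24 CPM in GFPhi, 0.560, 1.42 and 1.18 CPM in GFPLow, and 1.30 and 2.93 CPM in WT. Its log2 fold change over GFPLow was 1.79 ± 0.52 (edgeR adjusted p = 0.158). The more abundant Cdkn2d went the other way without overlap, with 137 to 162 CPM in GFPhi and 185 to 211 CPM in GFPLow. Its log2 fold change was -0.432 ± 0.175 (edgeR adjusted p = 0.37). Cdkn1a and Cdkn2d both passed edgeR's test in the fit without WT 1.

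In GFPhi against WT, 33 of the 49 further replication genes (median 0.20) and 27 of the 50 further mitosis genes (median 0.15) were above 0. Without WT 1 these counts were 45 (median 0.31) and 44 (median 0.315), against 10858 of all 20545 genes tested there. In GFPLow against WT, 22 of 49 (median -0.10) and 13 of 50 (median -0.74) were above 0. Without WT 1 these counts were 30 (median 0.14) and 13 (median -0.32), against 10704 of all 20545 genes tested there. Against WT, none of these lists had a called gene for GFPhi, against 0% of all genes. For GFPLow, 1 of 49 replication genes, 1 of 50 mitosis genes, 1 of 20 genes of G1 entry, 1 of 12 quiescence genes and 0 of 6 inhibitors were called, against 3.3% of all genes, so these are single genes and not a result on a list. Pik3ip1 rose in GFPLow against WT (edgeR adjusted p = 0.0312). Smc4, a condensin subunit, fell, with 1061, 1254 and 1215 CPM in GFPhi, 713, 758 and 759 CPM in GFPLow, and 1653 and 1363 CPM in WT (edgeR adjusted p = 0.0337). Rfc3 had 60.4, 48.0 and 40.3 CPM in GFPhi, 25.1, 21.4 and 25.7 CPM in GFPLow, and 90.7 and 44.6 CPM in WT, and fell in GFPLow against WT (edgeR adjusted p = 0.0432, but 0.0552 without WT 1). E2f3, an activating E2F factor, had 7.07, 6.96 and 4.47 CPM in GFPhi, 2.65, 2.01 and 3.12 CPM in GFPLow, and 10.4 and 6.90 CPM in WT, and also fell (edgeR adjusted p = 0.0457, but 0.0786 without WT 1).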

How the data were processed

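RNA-seq libraries of 8 sorted samples were analysed. The authors deposited 1 table of counts, whole numbers of reads or fragments for each Ensembl gene, not normalized. The submitters' processing notes name HTSeq 0.11.2, HISAT2 2.1.0, SAMtools 1.9, R 4.0, edgeR and build GRCm38. The annotation, the strand setting and the role of each tool are not given in these sources. Libraries were made from low-input RNA by the SMART-Seq HT kit and the Nextera XT kit, per the labels' protocols. No molecular identifiers are named there, so counts may hold amplification copies.

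Of 54837 identifiers, 54808 matched GENCODE vM21 (GRCm38), which gave symbols and exon lengths. Genes were kept by edgeR's filterByExpr, which left 18851 with all 50 members, and scaled by TMM. All 8 libraries entered 1 quasi-likelihood fit in edgeR 4.0.16, with a mean for each group and 5 residual degrees of freedom. Tests were two-sided, with Benjamini-Hochberg adjustment over all genes tested and a threshold of 0.05. CPM are TMM-scaled, and log2 CPM use a prior count of 2. Other software was R 4.3.3 with DESeq2 1.42.0 and limma 3.58.1, and Python 3.11.15 with matplotlib 3.10.9 and pandas 2.3.3. The fit was tested on simulated data. No p-value is given for a list.

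Members, lists and tests were chosen with earlier results of these data known. Named with all values were Mki67, Pcna, Mcm2, Top2a, Cdk1 and Ccnb1, and in each comparison the 4 replication and 4 mitosis genes with the smallest p. Of other cell cycle lists, genes past the threshold were named. Mcm6, and in GFPhi against GFPLow the uncalled Ttk, Rfc3, Pole2, Pik3ip1, Cdkn1a and Cdkn2d, were added after their values were seen. Alternatives were other scaling (RLE, upper quartile), other filters on low counts, DESeq2, limma voom, a block for the replicate number, no robust estimation, only the groups compared, and each library left out in turn.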

Additional observations from a re-analysis of the deposited data

How the results depend on the processing

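The number of members called in GFPhi against GFPLow, 0, became 3 with DESeq2, 8 with limma voom, 4 with only both groups' libraries, 11 with DESeq2 and 3 with voom without WT 1, and 0 to 4 with 1 library left out. In GFPhi against WT, 0 became 1 with DESeq2 and 0 to 19 with 1 library left out. In GFPLow against WT, 0 became 6 with DESeq2, 1 with DESeq2 without WT 1, and 0 to 20 with 1 library left out. The other scalings, filters and the fit without robust estimation gave 0 in each comparison. In GFPhi against GFPLow the share of all genes called also rose, from 2.26% to 7.29% with DESeq2 and 12% with limma voom. It was 12.3% with only both groups' libraries. With DESeq2 the share was 1.7% in GFPhi against WT and 17.2% in GFPLow against WT, from 0% and 3.3%. Shares for the fits without a WT library are given with each comparison. With 1 library left out, the median of replication genes was 0.268 to 0.877 in GFPhi against GFPLow and 0.385 to 0.911 in GFPhi against WT. The cause of these changes was not tested. The main fit did not pair libraries by title number, and whether equal numbers mark pairs was not tested. Over all genes tested, deviations of GFPhi and GFPLow libraries 1, 2 and 3 had correlations of 0.07, 0.07 and 0.15. Each library correlated best with its own number there. Over the 50 members the correlations were -0.39, 0.04 and -0.46, and not every library correlated best with its own number. Of the transgenic libraries, only GFPhi 3 and GFPLow 3 had Ddx3y at 0 CPM, with Xist at 236.7 and 184 CPM. With the replicate number as a block, 0 members were called in each comparison with all 8 libraries (182, 0 and 158 of all genes, against 426, 0 and 623 without it) and 2 (Mcm6 and E2f2) in the 6 transgenic libraries (1752 of all genes, or 10.3%).

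In GFPhi against WT, only the genes named for that comparison were followed through every alternative. Other members changed sign as well: without WT 1, Tyms went from -0.909 to 0.307 and Cdc20 from 0.508 to -0.166. Of the genes followed, 6 changed sign, all uncalled in the main fit. Mki67 (0.04) was -0.126 with upper quartile scaling, -0.068 with a filter of 5 CPM in 2 libraries, -0.037 with voom, and -0.40 to 0.36 with 1 library left out. Without WT 1, Pcna (-0.81) was 0.15 with edgeR, 0.149 with DESeq2 and 0.118 with voom, Cdk1 (-0.58) was 0.551, 0.55 and 0.365, and Cenpa (-0.54) was 0.005 with edgeR and with DESeq2. With 1 library left out the ranges were -1.36 to 0.15 for Pcna, -1.19 to 0.55 for Cdk1, -0.91 to 0.005 for Cenpa, -0.15 to 0.68 for Top2a (0.38) and -0.51 to 0.28 for Ccnb1 (-0.18, and 0.007 without GFPhi 3). Groups of 3, 3 and 2 libraries limit the precision, and the least abundant genes (E2f1, Foxm1, E2f8) rest on the fewest reads.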
